A study of Mus musculus with 36 samples.

Results

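The response of SMJ mouse liver at 6 h after acetaminophen was compared with that of 3 other strains, SJL, DBA and C57. Acetaminophen, a common analgesic, is toxic to the liver when overdosed, and every dosed mouse received 300 mg/kg as an injection into the abdomen after an overnight fast. The groups are SMJ at 6 h and SMJ before the dose (0 h), each of 3 mice, and SJL, DBA and C57 at the same 2 times, also of 3 mice each. These are 24 of the 36 arrays of the series, which also holds a 3 h group of each strain. The comparison was defined by the design and not by measured values: the change from 0 h to 6 h in SMJ minus the mean of the changes in SJL, DBA and C57. It is called the difference in response here, and it is positive where SMJ rose more or fell less than the other strains. The series names SMJ, DBA and C57 as sensitive to the injury and SJL as resistant. No vehicle group at 6 h was part of the series, so the dose cannot be told apart from the longer fast and the time of day. The labels give no batch, sex or age, and any difference in handling between strains cannot be told apart from the strain. Mice are written as strain and label number together (SMJ101), and no mouse was sampled at more than 1 time.

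Acetaminophen is turned by cytochrome P450 enzymes in the hepatocytes around the central veins into a reactive quinone imine, which uses up glutathione and then binds proteins. The cells answer with NRF2, heat shock and endoplasmic reticulum stress programmes, immediate early transcription factors and a later phase of repair. Hepatocytes hold a cortex of actin and myosin around the bile canaliculi and a network of the keratins KRT8 and KRT18, both known to be remodelled when the liver is injured. The liver also makes hormones that answer to fasting and stress, among them FGF21 and the activin-related protein INHBE.

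The array labelled SMJ56 at 0 h stood apart from the other 2 SMJ arrays of that time before any response could be compared. Fos had a signal of 2523 in SMJ56, against 76.7 in SMJ57 and 79.6 in SMJ58. Egr1 had 5824, against 358 and 422, and Hmox1 had 5481, against 447 and 561, in the same order of mice. SMJ56 had the highest signal of the 12 arrays at 0 h for 17 of 27 immediate early genes (63%), 12 of 17 heat shock proteins (70.6%) and 6 of 23 NRF2 targets (26.1%), against 1207 of all 14057 genes (8.59%). This array enters every SMJ change, so the differences in response are given with and without it for the genes and lists described. Arrays of one group at 0 h or 6 h correlated across genes at 0.924 to 0.964. The lowest were SMJ103 with SMJ102 (0.924) and with SMJ101 (0.926), all at 6 h. SMJ56 had 0.955 with SMJ57 and 0.949 with SMJ58, so it did not stand apart by this measure. At 3 h the lowest pair, in SJL, had 0.916. The ratio of 3' to 5' signal of actin, a sign of RNA integrity, was 1.28 to 1.41 in SMJ at 6 h and 1.51 to 1.67 in SMJ at 0 h. At the same times it was 1.33 to 1.64 and 1.585 to 1.87 in SJL, 1.39 to 1.53 and 1.69 to 1.82 in DBA, and 1.62 to 1.76 and 1.55 to 1.76 in C57. It was thus lower at 6 h in SMJ and DBA, overlapped in SJL, and was not lower in C57, the strain whose response differed from that of SMJ for the most genes. Its part in the results was not tested.

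**Figure D1:**
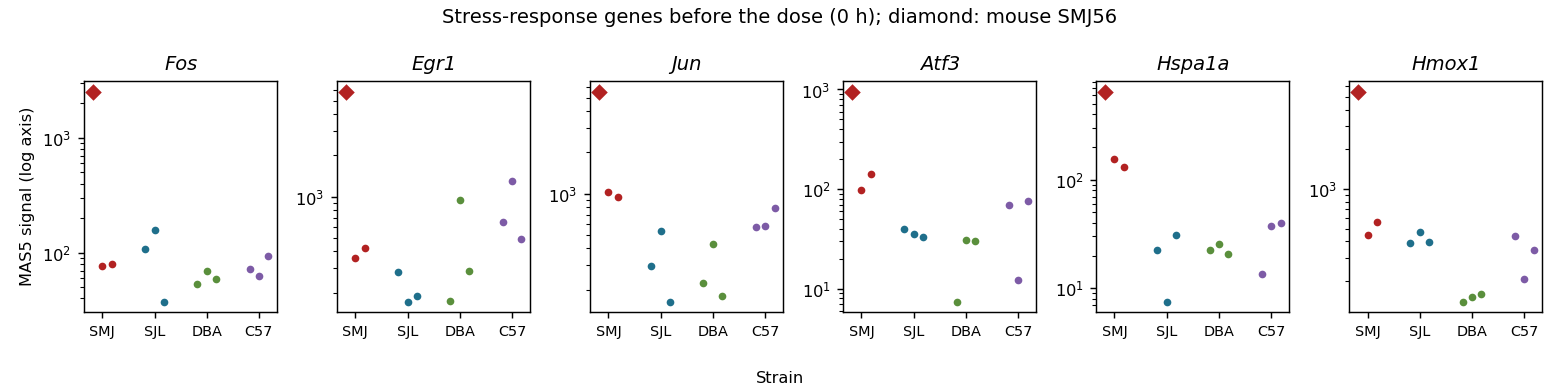
MAS5 signal (log axis) of 6 stress-response genes in the 12 mice sampled before the dose, by strain, with 1 point per mouse and a diamond for SMJ56. SMJ56 lies above every other mouse in each panel, with Fos at 2523 and Egr1 at 5824.

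More genes passed the test for change at 6 h in SMJ than in any other strain, and 325 genes responded differently in SMJ. Against its own 0 h mice, SMJ had 1236 genes higher (8.79%) and 1773 lower (12.6%), by limma with an adjusted p under 0.05. Together these were 21.4% of the 14057 tested. By the same test 982 changed in SJL (6.99%), 1767 in DBA (12.6%) and 1442 in C57 (10.3%). With arrays scaled to their 75th percentile SMJ had 1441 higher and 1398 lower, so the excess of lower genes depended on the scaling. The 325 genes were 2.31% of those tested, and the difference in response was positive for 156 of them (1.11%) and negative for the others (1.2%), with 2243 genes at an unadjusted p under 0.05 and a median over all genes of -0.003 on the log2 scale. Without SMJ56 the counts in both directions came out the same (again 325 genes, 156 of them higher), but 54 of the higher and 45 of the lower genes lost their call and as many others gained it. The genes called both ways, 1.61% of those tested, comprised 124 that were lower (0.882%) and the rest, which were higher (0.726%). The SMJ change lay outside the range of the other 3 strains' changes in 223 of them. Over all genes tested it lay above that range in 25.4% and below it in 26.5%. Choosing genes by their difference from the mean of the strains favours such a position. The count of 325 fell to 153, 148 and 131 without SMJ57, SMJ58 and SMJ101, and 49 of the higher and 35 of the lower genes were called in every fit that left out 1 array.

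The differences were of 2 kinds. Of the genes that were higher with and without SMJ56, 98 rose in SMJ (background 8.79%) and 4 had no called rise. In 62 of them the other strains changed upward on average but by less, and in 39 their mean change was downward. Of the 124 that were lower, all but 11 fell in SMJ (background 12.6%). In 78 the other strains' mean change was also downward, in 42 it was upward while SMJ went down, and in 4 it rose further than in SMJ. No single other strain had a called change of its own in 52 of the higher and 56 of the lower genes. Over all genes a change was called in 6.99% in SJL, 12.6% in DBA and 10.3% in C57, so most genes had none. The level at 0 h was lower in SMJ than the mean of the other strains for 19 of the higher genes (background 4.95%), and the level at 6 h was higher for 91 (background 9.69%). Of the 124, 23 were higher in SMJ at 0 h (background 4.67%) and 107 were lower at 6 h (background 11.4%). These levels and the SMJ changes share their arrays with the difference in response and are given as its parts. Choosing genes by that difference favours counts above the background, so these counts are no separate result. The difference was at least 2-fold for 61 of the higher and 33 of the lower genes, and the smallest called was 0.51 upward and -0.36 downward on the log2 scale.

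**Figure D2:**
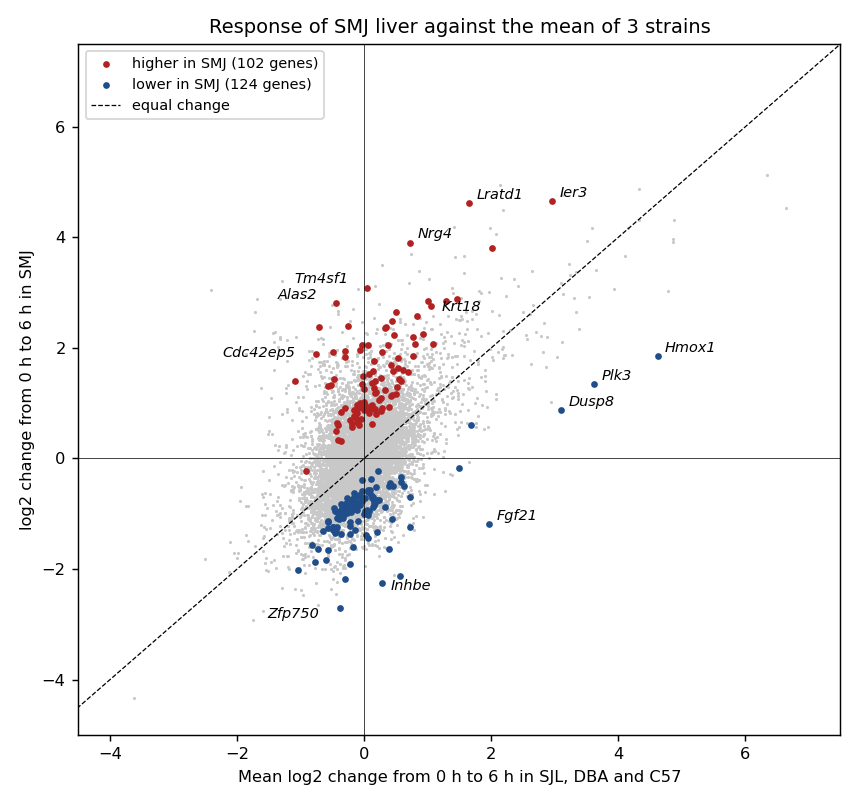
Change from 0 h to 6 h of 14057 genes on the log2 scale, with the mean of SJL, DBA and C57 on the horizontal axis and SMJ on the vertical axis. Red points are the genes with a higher response in SMJ and blue points the 124 with a lower response, both called with and without SMJ56, and the dashed line marks equal change. Hmox1, Plk3 and Dusp8 lie right of the line, where the other strains rose more, while Nrg4, Lratd1 and Ier3 lie above it.

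Set against 1 strain at a time, the SMJ response differed for 118 genes from SJL (0.839%, 60 higher and 58 lower), 89 from DBA (0.633%, 42 and 47) and 629 from C57 (4.47%, 302 and 327). Without SMJ56 the counts were 131, 83 and 596. These comparisons share the SMJ arrays. With arrays scaled to their 75th percentile the split was 73 higher and 39 lower against SJL and 373 and 221 against C57. Of the genes called with and without SMJ56, 15 (0.107% of those tested) were called in each of the 3 comparisons, 14 of them higher. They were Alas2, Lratd1, Fam107b, Tes, Tgm1, Phldb2, Krt18, Inf2, Blcap, Myl12a, Trmt6, Mmp14, Wdr1 and Dstn, and the gene that was lower was Tmcc1. Their names were taken after their values were seen, apart from Alas2, Lratd1 and Fam107b. Tes, Inf2, Myl12a, Wdr1 and Dstn belong to the actin cytoskeleton, and Krt18 and Tgm1 to the keratin and cornified envelope genes. PHLDB2 anchors microtubules at the cell cortex, MMP14 is a membrane-bound protease of the extracellular matrix, TRMT6 is a subunit of a tRNA methyltransferase, and TMCC1 is a membrane protein of the endoplasmic reticulum.

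Phldb2 had signals of 715, 803 and 423 in SMJ101, SMJ102 and SMJ103 at 6 h, against 262, 222 and 257 in SMJ at 0 h. In the 9 mice of the other strains its signal was 116 to 321 at 6 h and 144 to 355 at 0 h. All 3 SMJ mice at 6 h were thus above all 9 others, and the groups overlapped at 0 h. The difference in response of Phldb2 was 1.86 ± 0.25 on the log2 scale (SE, adjusted p = 0.000272) and 1.91 without SMJ56. Mmp14 rose by 0.77 in SMJ, and its changes in SJL, DBA and C57 were -0.22, -0.26 and -0.01 (difference 0.94; 1.00 without SMJ56). Tmcc1 had 286, 360 and 331 in SMJ at 6 h and 453, 440 and 483 at 0 h, against 393 to 679 and 290 to 447 in the other strains at 6 h and 0 h, so that SMJ lay at the top of the others' range before the dose and below all of them at 6 h. Its difference was -1.12 ± 0.17 (adjusted p = 0.000927; -1.13 without SMJ56), but -0.52 with a second probe set, which did not pass.

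**Figure D3:**
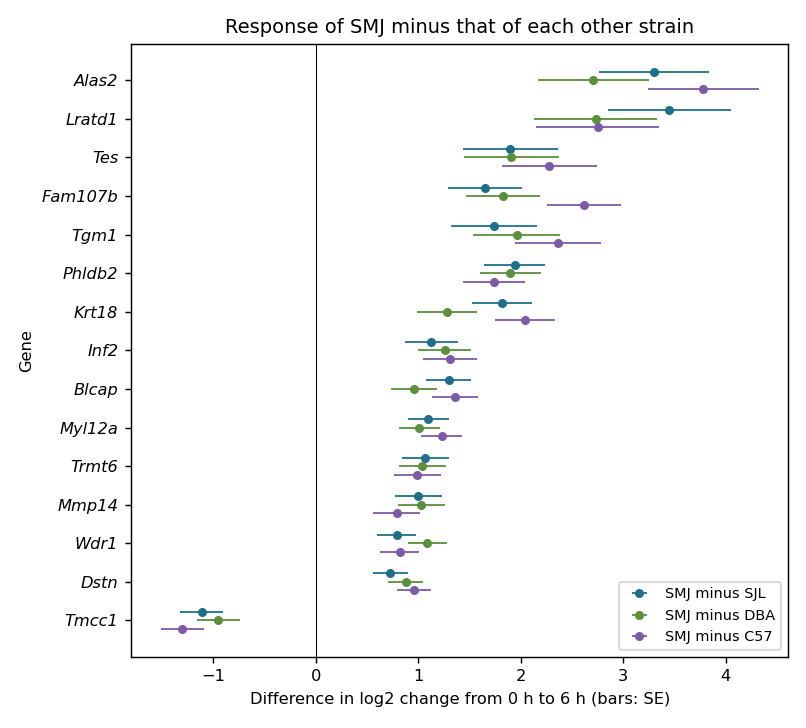
Difference between the SMJ change and the change of each other strain from 0 h to 6 h on the log2 scale, for the 15 genes called against each strain. Points are the estimates for SJL, DBA and C57 and bars are standard errors. The 14 higher genes run from Alas2 at 3.26 to Dstn at 0.85 as the mean over the 3 strains, and Tmcc1 stands at -1.12.

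Genes of keratin filaments, cell junctions and the cornified envelope included several of these. KRT8 and KRT18 pair to form the intermediate filaments of hepatocytes, and both genes lie on chromosome 15. Krt18 reached 17113, 15518 and 14207 in SMJ at 6 h, against 2856, 2144 and 1982 in SMJ at 0 h. The other strains had a median of 3926 at 6 h (3207 to 7981) and 2304 at 0 h (1731 to 2486). Krt18 therefore separated all 3 SMJ mice from the 9 others at 6 h and not before. It rose by 2.76 in SMJ, against 0.94 in SJL, 1.48 in DBA and 0.72 in C57 (difference 1.71 ± 0.24, adjusted p = 0.000302; 1.87 without SMJ56). Krt8 moved alike, at 13498, 14443 and 12387 in SMJ at 6 h and 1829, 1947 and 1653 at 0 h, with a difference of 1.43 ± 0.29 (adjusted p = 0.00837; 1.44 without SMJ56).

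Of the 34 keratin, junction and cornified envelope genes tested, 8 were higher and 3 lower (background 1.11% and 1.2%), and 6 and 2 kept the call without SMJ56 (background 0.726% and 0.882%). The list's median difference was 0.26 (0.19 without SMJ56), against -0.003 over all genes. This list and those of actin, heme, EGF family, FGF21 and activin axis and peroxisome genes were put together after the leading genes had been seen, so their counts and medians describe the genes chosen and are no independent evidence of a group. Tgm1, the transglutaminase that crosslinks the cornified envelope, had 287, 367 and 234 in SMJ at 6 h and 62.1, 71.4 and 87.3 at 0 h, against 34.1 to 136 in the other strains at 6 h. Its signal rose in SMJ and changed by 0.22, -0.01 and -0.41 in SJL, DBA and C57 (difference 2.02; 1.91 without SMJ56). Ppl, which encodes the desmosomal plakin periplakin, had 1186, 920 and 892 in SMJ at 6 h, above the highest of the other strains, 534 (difference 1.56; 1.66 without SMJ56). Cdh1, the adhesion molecule E-cadherin, had 812, 1027 and 940 at 6 h, against at most 645 in the others (difference 1.64; 1.75 without SMJ56). Pkp2, a desmosomal plakophilin, differed by 0.73 (adjusted p = 0.0125), and by 0.65 without SMJ56, but missed the threshold without SMJ101 (adjusted p = 0.0552).

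The 2 lower genes of this list were Gja4, which encodes a connexin of blood vessel endothelium, and Cgnl1, a cingulin-like junction protein. Gja4 had 161 in SMJ102, 142 in SMJ103 and less in SMJ101 at 6 h, all below the 270 to 528 of the other strains, after 259, 119 and 121 in SMJ at 0 h. The gene rose in SJL, DBA and C57 by 1.32, 1.73 and 1.44, and its change in SMJ, -0.17, did not pass. Its difference was -1.67 with an adjusted p of 0.0125 (0.0576 without SMJ101), and -1.30 without SMJ56 (adjusted p = 0.0494). Cgnl1 fell by 0.88 in SMJ (difference -0.60, adjusted p = 0.0204; -0.67 without SMJ56) and missed the threshold without SMJ57, SMJ58, SMJ101 or SMJ102.

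KRT8 and KRT18 are also made by bile duct cells, whose own markers, summed, were higher in all 3 SMJ mice at 6 h than in SMJ at 0 h. Of 9 bile duct markers 5 were tested and 0 passed, by limma, in the difference in response, with a median of 2.20 (2.06 without SMJ56). The sum of the 5 signals was 486 to 1132 in SMJ at 6 h and at most 215 in SMJ at 0 h. In the other strains it was 212 to 398 at 6 h and 135 to 608 at 0 h. From 0 h to 6 h 3 of the 5 rose in SMJ (background 8.79%). This compares with 1 in SJL (3.66%), 1 in DBA (4.82%) and 0 in C57 (4.4%). SMJ103 had the highest Epcam, 502, against 35.1 and 64.5 in SMJ101 and SMJ102, and the highest Krt19, 380, against 111 in SMJ101 and a like value in SMJ102. Krt18 and Krt8 were lowest of the 3 in that mouse. In whole liver more cells of a type and more RNA per cell cannot be told apart, and the part of bile duct cells in these values was not tested.

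Genes of actin filaments and of the actin motor myosin formed a larger list. Of 54 such genes tested, 16 were higher and 1 lower (background 1.11% and 1.2%), and 11 and 1 kept the call without SMJ56 (background 0.726% and 0.882%). The median difference of these chosen genes was 0.49 (0.47 without SMJ56). The median change from 0 h to 6 h was 0.68 in SMJ, 0.05 in SJL, 0.17 in DBA and 0.24 in C57. The members that were higher took part in several steps of filament assembly and turnover.

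Among proteins that cut or disassemble filaments, Dstn, which encodes destrin, had 4582, 4704 and 4565 in SMJ at 6 h and 2738, 2158 and 2282 at 0 h. The other strains lay between 1121 and 2966 at 6 h and between 1074 and 3290 at 0 h. Destrin thus stood above all other mice in the 3 SMJ livers at 6 h, with a difference of 0.85 ± 0.14 (adjusted p = 0.00124; 0.96 without SMJ56). Wdr1, a partner of cofilin in disassembly, had 1034, 945 and 850 in SMJ at 6 h, against at most 549 elsewhere at that time (difference 0.90; 0.85 without SMJ56). Cfl1, cofilin itself, differed by 0.56 (adjusted p = 0.0345), and by 0.46 without SMJ56, which did not pass (adjusted p = 0.103).

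Inf2, a formin that both builds and severs filaments, had 539, 555 and 472 in SMJ at 6 h and 203, 213 and 172 at 0 h, against 134 to 227 and 132 to 202 in the other strains at 6 h and 0 h. It rose in SMJ by 1.40 and changed by 0.09 to 0.27 in the others (difference 1.23; 1.26 without SMJ56). Tes and Zyx, which encode the adhesion proteins testin and zyxin, differed by 2.03 and 1.27 (2.19 and 1.30 without SMJ56). Tes had 406, 298 and 334 in SMJ at 6 h, each above every mouse of the other strains, and Zyx had 1601, 1647 and 1277, against at most 679. A second probe set of Zyx gave only 0.38, which did not pass.

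Of the 6 myosin chain genes in the list, Myl12a and Myh9 were higher. Myl12a, a regulatory light chain of non-muscle myosin, had 2836, 2342 and 2189 in SMJ at 6 h and 882, 724 and 749 at 0 h, against 1005 to 1548 and 674 to 1036 in the other strains at 6 h and 0 h. It rose in SMJ by 1.64, and its changes of 0.54, 0.63 and 0.41 in SJL, DBA and C57 were smaller. Its difference was 1.11 ± 0.16 (adjusted p = 0.00064; 1.2 without SMJ56), and 0.70 with a second probe set, which did not pass. Ppp1r12a, the targeting subunit of myosin phosphatase, differed by 1.02 ± 0.16 (adjusted p = 0.00123; 1.23 without SMJ56). Myh9, a heavy chain of non-muscle myosin, differed by 0.99 (0.88 without SMJ56) and missed the threshold without SMJ101 or SMJ102 (highest adjusted p = 0.0616). The other myosin chains, Myl9, Myl6, Myl12b and Myh10, differed by 0.29, 0.27, -0.19 and -0.34, and did not pass. Tpm1, a tropomyosin that coats filaments, and Tagln2, an actin-binding transgelin, differed by 1.00 and 0.95 (1.00 and 0.90 without SMJ56).

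Actb, which encodes cytoplasmic actin, had 17882, 15632 and 18299 in SMJ at 6 h and 8519, 6979 and 7562 at 0 h, against 8728 to 14683 and 6215 to 9731 in the other strains at 6 h and 0 h. Its difference of 0.67 passed (adjusted p = 0.013; 0.75 without SMJ56). It did not pass without SMJ57 or SMJ101, after quantile normalization, or with a second probe set, which gave 0.10. Actg1, the other cytoplasmic actin, differed by 0.64 with all arrays, which did not pass (adjusted p = 0.341), and by 1.14 without SMJ56 (adjusted p = 0.0213). SMJ56 at 0 h had an Actg1 signal of 5385, against 1995 and 1810 in the other 2 SMJ mice. Rdx, which links the membrane to actin at the bile canaliculus, was the member that was lower, at 954, 886 and 626 in SMJ at 6 h and 2065, 1809 and 1894 at 0 h (difference -0.82, adjusted p = 0.0101; -0.77 without SMJ56). A second probe set, where a gene had one that could be tested, passed for Wdr1, Inf2 and Ppp1r12a and did not for Actb, Zyx, Tes, Tpm1, Myl12a, Tagln2 and Rdx. Actin and myosin genes have close relatives, and cross-hybridisation between them was not tested.

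**Figure D4:**
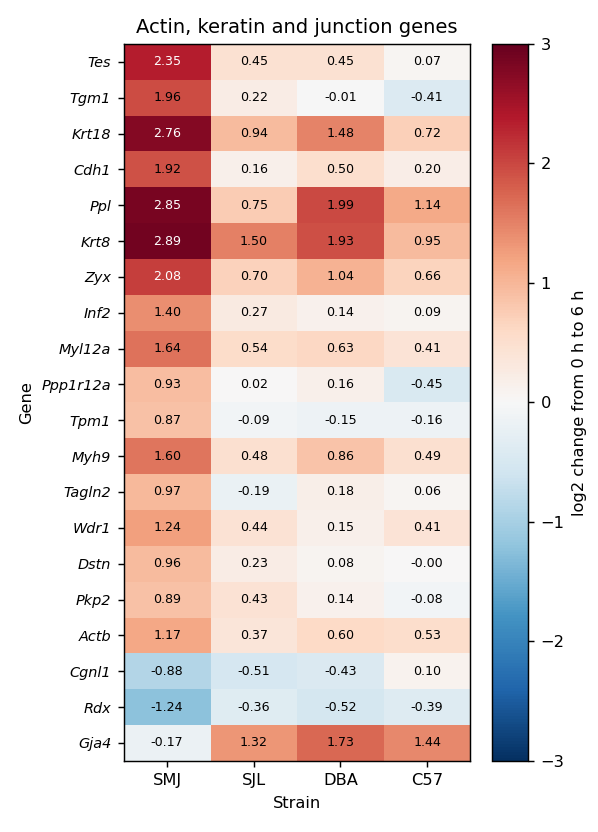
Change from 0 h to 6 h on the log2 scale in SMJ, SJL, DBA and C57 for the 20 genes of the actin and keratin lists called with and without SMJ56. The first column, SMJ, is the darkest red in the 17 higher genes, with Krt18 at 2.76 and Tes at 2.35, and Gja4 in the last row rose in every strain but SMJ.

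Many actin genes are known targets of SRF, a transcription factor that binds the CArG box, and the gene of SRF itself was among those called. Srf had 299, 295 and 277 in SMJ at 6 h and 136, 136 and 145 at 0 h, against 178 to 285 and 147 to 274 in the other strains at 6 h and 0 h. Its difference was 0.76 (adjusted p = 0.0386), with 0.75 without SMJ56 (adjusted p = 0.0708) and -0.26 with a second probe set. The CArG box was searched as CC, then 6 bases of A or T, then GG, which reads the same on both strands, in windows from 250 bases before to 50 after each gene start in RefSeq (GRCm38.p6). It was present in 535 of 32851 windows (1.63%). Counted by gene, with the box in any window of the gene, it was present in 180 of 11303 genes tested (1.59%). By the same count it was present in 9 of 51 genes of the actin list (17.6%). It was present in 1 of 83 genes with a higher response (1.2%) and in 3 of 96 with a lower response (3.12%). Genes with a higher response thus held the box about as often as all genes tested, a share that rests on 1 gene. The windows of Srf (chr17:46556113-46556412, minus strand) and Actg1 (chr11:120348446-120348745, minus strand) are shown because they carry the box close to the gene start, with the box in capitals:
Srf: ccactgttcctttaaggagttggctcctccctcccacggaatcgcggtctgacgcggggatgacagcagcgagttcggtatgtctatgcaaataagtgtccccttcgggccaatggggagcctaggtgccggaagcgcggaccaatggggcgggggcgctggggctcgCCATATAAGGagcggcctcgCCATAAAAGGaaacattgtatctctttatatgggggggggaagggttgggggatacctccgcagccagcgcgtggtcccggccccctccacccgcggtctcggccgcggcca
Actg1: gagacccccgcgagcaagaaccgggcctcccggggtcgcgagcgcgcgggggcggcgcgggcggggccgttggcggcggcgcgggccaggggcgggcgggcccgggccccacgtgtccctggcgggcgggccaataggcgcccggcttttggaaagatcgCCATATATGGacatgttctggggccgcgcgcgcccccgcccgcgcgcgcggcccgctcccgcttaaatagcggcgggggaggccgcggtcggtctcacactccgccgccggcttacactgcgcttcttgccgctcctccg
A match to these letters is a description of the window, not evidence of binding.

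Alas2 had the largest difference in response of all named genes. It encodes the erythroid form of 5-aminolevulinate synthase, which starts heme synthesis, and lies on the X chromosome. Its signals were 2090, 458 and 693 in SMJ101, SMJ102 and SMJ103 at 6 h, against 123, 119 and 122 in SMJ at 0 h. In the other strains it had a median of 279 at 6 h (88.9 to 1190) and 529 at 0 h (171 to 914). SMJ was the lowest strain before the dose, and its mice lay within the range of the others at 6 h except SMJ101, which was above it. Alas2 rose by 2.82 in SMJ and changed by -0.48, 0.11 and -0.96 in SJL, DBA and C57 (difference 3.26 ± 0.44, adjusted p = 0.000272; 3.27 without SMJ56; 2.64 to 3.73 over the fits without 1 array).

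Of 18 genes of heme synthesis and breakdown tested, 3 were higher and 1 lower (background 1.11% and 1.2%), and 2 and 1 kept the call without SMJ56 (background 0.726% and 0.882%). This list was put together after Alas2 had been seen. The second of these was Slc25a37, the mitochondrial iron importer of erythroid cells, at 1378, 576 and 580 in SMJ at 6 h and 316, 246 and 287 at 0 h. Its difference was 1.18 (adjusted p = 0.0237; 1.26 without SMJ56), and it missed the threshold without SMJ57, SMJ58 or SMJ101 (lowest difference 0.77, highest adjusted p = 0.126). Alas1, the form of the enzyme that hepatocytes use, differed by -0.11 (adjusted p = 0.938; -0.04 without SMJ56). Of 7 erythroid markers 3 were tested. The globin Hba-a1 was at 6.0 to 20.3 in SMJ at 6 h and 10.0 to 26.1 at 0 h, below the median signal of the arrays, and Slc4a1, the red cell anion exchanger, was at 105, 33.0 and 40.3 in SMJ at 6 h and 14.7 to 22.5 at 0 h. Both differences missed the threshold with and without SMJ56. SMJ101 was the highest of the 3 mice for Alas2, Slc25a37 and Slc4a1, and whether red cell precursors had a part in these values was not tested.

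Growth factors were also called. Nrg4, a secreted ligand of the receptor ERBB4, had 1584, 1217 and 859 in SMJ at 6 h and 112 in SMJ56 and 34.6 in SMJ58 at 0 h, with SMJ57 close to SMJ56, against 139 to 471 and 43.1 to 616 in the other strains at 6 h and 0 h. SMJ lay above every other mouse at 6 h. The change was 3.90 in SMJ, 0.71 in SJL, 2.11 in DBA and -0.64 in C57, with a difference of 3.17 ± 0.53 (adjusted p = 0.00197; 3.44 without SMJ56). Hbegf, a ligand of the EGF receptor, had 434, 204 and 186 in SMJ at 6 h and 37.8, 40.2 and 23.3 at 0 h. Its difference was 1.85 (adjusted p = 0.0222; 1.94 without SMJ56), and it missed the threshold without SMJ58 or SMJ101 (highest adjusted p = 0.127). Of 13 ligands and receptors of the EGF family tested these were the 2 that were higher, with and without SMJ56 (background 0.726%), and 0 were lower, with a list median of 0.59 (0.42 without SMJ56). This list was put together after Nrg4 had been seen. Egfr, the receptor itself, differed by 0.36 (adjusted p = 0.385; 0.37 without SMJ56).

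The hormones FGF21 and INHBE had the opposite course. Fgf21, a fasting and stress hormone of the liver, had 325, 263 and 269 in SMJ at 6 h and 934, 473 and 620 at 0 h, against a median of 2310 (575 to 3442) and 464 (224 to 1203) in the other strains at 6 h and 0 h. All 3 SMJ mice were below all 9 others at 6 h, and the groups overlapped at 0 h. The change was -1.18 in SMJ, which did not pass (adjusted p = 0.109), and 1.58, 1.21 and 3.12 in SJL, DBA and C57. The difference was -3.15 ± 0.60 (adjusted p = 0.00518; -2.89 without SMJ56), the largest of the genes with a lower response. Against single strains it passed against C57 (-4.30, adjusted p = 0.00119) and not against SJL (-2.76, adjusted p = 0.0665) or DBA (-2.40, adjusted p = 0.139).

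Inhbe, the subunit of activin E that hepatocytes secrete, had 98.2, 105 and 84.5 in SMJ at 6 h and 314, 497 and 657 at 0 h, against 151 to 1391 and 128 to 1764 in the other strains at 6 h and 0 h. It fell by 2.26 in SMJ, and its changes elsewhere were 0.19, -0.32 and 0.95 (difference -2.53 ± 0.52, adjusted p = 0.00934; -2.82 without SMJ56). Of 17 genes of the FGF21 and activin axis tested, 4 were lower and 1 higher, with and without SMJ56 (background 0.882% and 0.726%), in a list put together after Fgf21 and Inhbe had been seen. The others that were lower were Gdf2, which encodes BMP9, at -1.04, and Fgfrl1, an FGF receptor without a kinase, at -0.64 (-0.99 and -0.82 without SMJ56). The gene that was higher was Fst, which encodes follistatin, an inhibitor that binds activins, at 324, 621 and 693 in SMJ at 6 h and 148 and 123 in SMJ57 and SMJ58 at 0 h, with SMJ56 below both. Fst differed by 1.99 (adjusted p = 0.0152; 1.85 without SMJ56), by 2.48 and 2.92 against SJL and C57, and by 0.58 against DBA, where it did not pass. Gdf2 missed the threshold without SMJ57 (adjusted p = 0.052), and Fgfrl1 without SMJ57, SMJ58, SMJ101 or SMJ102.

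**Figure D5:**
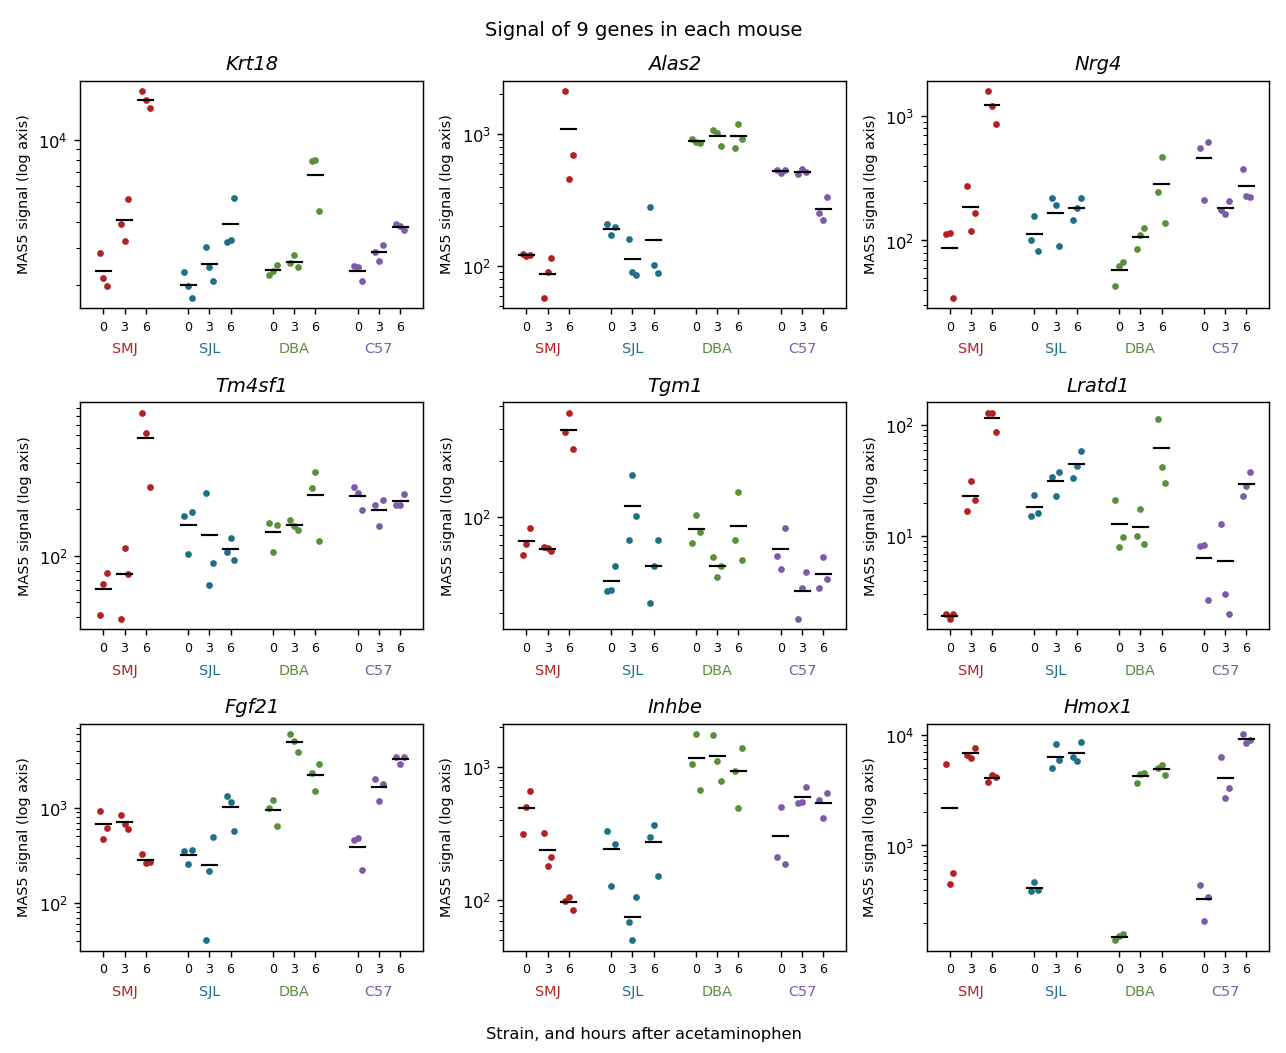
MAS5 signal (log axis) of 9 genes in all 36 mice, at 0, 3 and 6 h in SMJ, SJL, DBA and C57, with 1 point per mouse and a bar at each group's mean. Krt18 in SMJ at 6 h lies between 14207 and 17113, above all other groups, while Fgf21 lies between 263 and 325, below every mouse of the other strains at 6 h.

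Several stress genes had values that moved with SMJ56. Hmox1, heme oxygenase 1, rose in every strain, by 1.86 in SMJ and by 4.03, 4.99 and 4.85 in SJL, DBA and C57. Its signals were 3710, 4329 and 4147 in SMJ at 6 h and 5481, 447 and 561 at 0 h, against 4285 to 10149 and 139 to 468 in the other strains at 6 h and 0 h. The difference was -2.76 with all arrays (adjusted p = 0.0124) and -1.62 without SMJ56 (adjusted p = 0.00749), so it passed both ways at sizes that differ. The 27 immediate early genes had a median difference of -0.56 with all arrays and 0.09 without SMJ56. Of these 1 passed, Ier3, which was higher (background 1.11%). Ier3 had 1761, 1325 and 1015 in SMJ at 6 h and 27.6 and 43.9 in SMJ57 and SMJ58 at 0 h, with SMJ56 above both, and its difference of 1.70 (adjusted p = 0.0379; 2.19 without SMJ56) missed the threshold in 11 of 24 fits without 1 array. Atf3, a stress transcription factor, differed by -2.11 (adjusted p = 0.109) and by -1.12 without SMJ56.

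Plk3, a stress-activated polo-like kinase, and Dusp8, a phosphatase of MAP kinases, were already high in SMJ before the dose. Dusp8 had 336, 251 and 472 in SMJ at 6 h and 151, 204 and 201 at 0 h, against 71.0 to 297 and 5.2 to 69.9 in the other strains at 6 h and 0 h. It rose by 4.59 and 3.69 in SJL and DBA, while in C57 its change, 1.03, was close to the 0.88 of SMJ, which did not pass. Its difference was -2.22 ± 0.47 (adjusted p = 0.0118; -2.36 without SMJ56), and it did not pass against DBA and C57 alone or with a second probe set. Plk3 had 1643, 2152 and 2061 in SMJ at 6 h, within the 1456 to 2945 of the other strains, and 1215, 606 and 596 at 0 h, above their 47.7 to 310. Its difference was -2.28 (adjusted p = 0.013; -1.94 without SMJ56; adjusted p = 0.0546 without SMJ101).

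Of 22 genes of the unfolded protein and integrated stress responses, 3 were lower and 0 higher (background 1.2% and 1.11%). Of the 3, 2 remained without SMJ56, Fgf21 and Herpud1 (background 0.882%). Herpud1, which helps to clear misfolded proteins from the endoplasmic reticulum, had 3914, 3224 and 4725 in SMJ at 6 h and 8303, 5017 and 6018 at 0 h, against 4477 to 8330 and 2896 to 5778 in the other strains at 6 h and 0 h. Its signal fell by 0.69 in SMJ and changed by 0.58, 1.19 and 0.40 elsewhere (difference -1.41 ± 0.26, adjusted p = 0.00466; -1.21 without SMJ56). Chac1, which degrades glutathione and is a target of ATF4, had 197, 194 and 227 in SMJ at 6 h, below the 421 to 1069 of the others. Its difference of -1.93 (adjusted p = 0.0304) became -1.58 without SMJ56 and did not pass (adjusted p = 0.0941), nor did it without SMJ57, SMJ101 or SMJ102. Of 17 heat shock proteins 1 was higher (background 1.11%), the mitochondrial chaperonin Hspd1, at 0.54 (0.63 without SMJ56). Hspd1 missed the threshold without SMJ57, SMJ58, SMJ101, SMJ102 or DBA113. Of 23 NRF2 targets Hmox1, which was lower, was the only call with all arrays (background 1.2%). The list's median difference was upward, 0.23 (0.21 without SMJ56). The SMJ change lay above all other strains in 47.8% of the list and below them in 17.4%, against 25.4% and 26.5% of all genes. Fth1, the ferritin heavy chain, was higher without SMJ56 (0.60, adjusted p = 0.0369, background 1.11%).

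Of 37 peroxisome genes tested, 7 were lower and 0 higher (background 1.2% and 1.11%), but 2 kept the call without SMJ56 (background 0.882%), and the median difference was -0.21 (-0.17 without SMJ56). Pex11a, which drives division of peroxisomes, had 361, 472 and 422 in SMJ at 6 h and 880, 1094 and 1130 at 0 h, against 1022 to 1719 and 1562 to 2785 in the other strains at 6 h and 0 h. Its difference was -0.80 (adjusted p = 0.0348; -0.91 without SMJ56), and C57 had nearly the same fall, -1.14 against -1.30 in SMJ. Pex13, a part of the import pore, differed by -0.53 (adjusted p = 0.0483; -0.60 without SMJ56). Pex11a missed the threshold in 8 and Pex13 in 21 of the 24 fits without 1 array. Ppara, the receptor that drives peroxisomal and mitochondrial fat oxidation, had 314, 296 and 363 in SMJ at 6 h and 573, 1471 and 1648 at 0 h. It differed by -0.85 with all arrays (adjusted p = 0.171) and by -1.33 without SMJ56 (adjusted p = 0.00749). Gys2, the liver glycogen synthase, had 541, 625 and 668 in SMJ at 6 h and 985, 952 and 1048 at 0 h, against 1009 to 2635 and 1059 to 1747 in the other strains at 6 h and 0 h. Its difference was -0.84 ± 0.17 (adjusted p = 0.00983; -0.85 without SMJ56).

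Several lists had medians away from that of all genes with at most 1 call. The background of calls was 1.11% higher and 1.2% lower, with all arrays and without SMJ56. In cholesterol synthesis 0 of 18 genes passed, and the median difference was -0.52 (-0.59 without SMJ56). The SMJ change lay below all 3 other strains in 72.2% of that list, against 26.5% of all genes, and the list's median change was -0.25 in SMJ, 0.35 in SJL, 0.42 in DBA and 0.53 in C57. Fatty acid synthesis had 0 of 17, with a median of -0.39 with and without SMJ56. Glucose production and use had 1 of 17 lower, Gys2, with a median of -0.57 (-0.42 without SMJ56). Against single strains its median was 0.01 for SJL, -0.63 for DBA and -0.25 for C57. The SMJ change lay below all 3 other strains in 29.4% of the glucose list, close to the 26.5% of all genes. Acute phase proteins had 0 of 23 with all arrays and a median of 0.49, and without SMJ56 the median was 0.59 and 1 was higher, the protease inhibitor Serpina3n (0.79 with all arrays, adjusted p = 0.112; 1.06 without SMJ56, adjusted p = 0.0248). Hepatocyte secreted proteins had 0 of 13 and a median of 0.45 both ways, and cytosolic ribosomal proteins had 0 of 24 and 0.29 (0.34 without SMJ56). With all arrays the SMJ change lay above all 3 other strains in 69.6%, 92.3% and 87.5% of these 3 lists. Albumin (Alb) differed by 0.60 (adjusted p = 0.124; 0.62 without SMJ56).

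The remaining genes with the largest differences had varied functions. Tm4sf1, a membrane protein related to tetraspanins, had 841, 617 and 276 in SMJ at 6 h and 41.4, 65.3 and 76.8 at 0 h, against 94.3 to 347 in the other strains at 6 h and up to 278 at 0 h. SMJ was below every other mouse at 0 h, and SMJ101 and SMJ102 were above every other mouse at 6 h (difference 3.04 ± 0.50, adjusted p = 0.00185; 2.80 without SMJ56), with 1.42 from a second probe set, which did not pass. Lratd1 had 130, 129 and 87.5 in SMJ at 6 h and 2.0, 1.8 and 2.0 at 0 h, where the signal lies below the offset of 2.77. Its difference of 2.98, with and without SMJ56, therefore depends on the offset, and was 1.80 with an offset of 16. Abcb1a, a drug efflux pump of the bile canaliculus, had 183 and 202 in SMJ102 and SMJ103 and slightly less in SMJ101 at 6 h and 43.6, 52.9 and 14.4 at 0 h, against at most 91.8 elsewhere at 6 h (difference 2.65 ± 0.48, adjusted p = 0.00401; 2.85 without SMJ56). Fam107b had 3096, 3400 and 2161 in SMJ at 6 h, against 451 to 1931 in the other strains (difference 2.03, adjusted p = 0.00064; 2.08 without SMJ56). Cdc42ep5, an effector of the GTPase CDC42, differed by 2.65 (2.51 without SMJ56), but by 0.09 with a second probe set, and Kcnj8, a subunit of potassium channels, differed by 2.09 (2.18 without SMJ56).

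Other genes of the higher group were low or rested on single mice. Trnp1 differed by 3.10 and Tnfrsf11b, the decoy receptor osteoprotegerin, by 2.42, with signals of at most 59.8 and 47.7 in SMJ. Hmga2, a chromatin protein, differed by 2.14, Fhad1 by 2.15 and Ptpre, a tyrosine phosphatase, by 2.04. Tent5c, a poly(A) polymerase, differed by 2.24, with 628 in SMJ101 against 156 and 205 in SMJ102 and SMJ103. Ccn4, a secreted protein of the matrix, differed by 2.49. Without SMJ56 the differences were 2.87 for Trnp1, 2.77 for Tnfrsf11b, 1.80 for Hmga2, 2.32 for Fhad1, 2.06 for Ptpre, 2.50 for Tent5c and 2.84 for Ccn4. Of these 7 genes, each missed the threshold in at least 1 fit without 1 array, from 1 fit for Hmga2 and Ptpre (without SMJ101) to 18 of 24 for Ccn4. The arrays concerned were SMJ58 and SMJ103 for Trnp1, SMJ57 and SMJ101 for Tnfrsf11b, SMJ57, SMJ58 and SMJ101 for Tent5c, and these with SMJ102 for Fhad1.

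Among the lower group, Zfp750, a zinc finger protein known from epidermal differentiation, had 5.1, 15.8 and 19.1 in SMJ at 6 h and 46.0, 155 and 112 at 0 h, against 52.9 to 125 and 75.2 to 165 in the other strains at 6 h and 0 h. SMJ was below every other mouse at 6 h, and the difference was -2.31 ± 0.50 (adjusted p = 0.0131), which missed the threshold without SMJ57, SMJ58 or SMJ101. Itga10, an integrin subunit, had 2.4, 3.1 and 4.4 in SMJ at 6 h and 20.6 to 32.7 at 0 h (difference -1.87). Chrna2, a subunit of nicotinic receptors, had 32.1, 43.4 and 19.7 at 6 h and up to 136 at 0 h (difference -1.68). Zmat1 differed by -1.43, and Slc9a7, a sodium-proton exchanger, by -2.69 at signals of 3.0 or less in SMJ at 6 h. Ankrd44 differed by -1.53, and by 0.17 with a second probe set, so its direction depends on the probe set. Tor3a differed by -1.52 and missed the threshold without SMJ58 or SMJ101. Hook2 and Slc22a15 differed by -1.50 and -1.96 and missed it in 15 and 19 of 24 fits without 1 array. Slc9a7 and Chrna2 each missed it without SMJ57, SMJ58, SMJ101 or SMJ103. Without SMJ56 the differences were -2.80 for Zfp750, -1.96 for Itga10, -1.60 for Chrna2, -1.36 for Zmat1, -3.18 for Slc9a7, -1.49 for Ankrd44, -1.55 for Tor3a, -1.74 for Hook2 and -2.24 for Slc22a15. With an offset of 16 Slc9a7 differed by -1.17 and Itga10 by -0.88, and neither passed.

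Some calls depended on SMJ56. The largest that did not pass without it were P2ry2 at 3.23, Map2k3os at 2.97, Nell2 at 2.94, Pou5f2 at 2.50 and Akap12 at 2.32, whose adjusted p-values without it were 0.0708, 0.0679, 0.0694, 0.066 and 0.0711. Their differences without SMJ56 were 3.04, 2.84, 3.03, 2.53 and 2.24, close to those with it. On the lower side they were Wipf3 at -1.97, Chac1, Rasgrp3 at -1.61, Ccdc141 at -1.38 and Tbccd1 at -1.10, and without SMJ56 these were -1.84, -1.58, -1.49, -1.39 and -0.97. Cyp2c37, a pericentral P450 enzyme, was the only call among 22 Cyp2 and Cyp3 enzymes and among 16 pericentral markers (background 1.11% higher). It differed by 1.90 with all arrays and by 1.16 without SMJ56 (adjusted p = 0.144). Its signal was 15.2 to 27.6 in SMJ at 6 h and 3.7 to 28.0 at 0 h, against medians of 988 and 3486 in the other strains at 6 h and 0 h, so it was near the floor in SMJ at both times.

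Markers of other cells were set beside these results. The 11 neutrophil markers tested had 0 calls and a median of 1.26 (0.83 without SMJ56), and their summed signal was 5935 to 11066 in SMJ at 6 h and 511 to 4132 at 0 h. In the other strains at 6 h it was 1680 to 8105 in SJL, 1531 to 2339 in DBA and 1211 to 1464 in C57. In SMJ 5 of the 11 rose from 0 h to 6 h (background 8.79%), S100a8, S100a9, Mmp8, Csf3r and Lcn2, against 0 in SJL (3.66%), 1 in DBA (4.82%) and 1 in C57 (4.4%). S100a8, a calcium-binding protein abundant in neutrophils, had 827, 527 and 404 in SMJ at 6 h and 59.7, 18.3 and 27.0 at 0 h, against 142 to 1167 and 14.6 to 347 in the other strains at 6 h and 0 h. It rose by 4.05 in SMJ, and its partner S100a9 by 4.17, with differences of 1.97 and 2.19 that did not pass (adjusted p = 0.273 and 0.29; 2.41 and 2.85 without SMJ56). Mmp8, a neutrophil collagenase, rose by 2.33 and reached 147, 128 and 94.9 in SMJ at 6 h, above the 85.7 that was the highest of the other strains. Lcn2, which hepatocytes also make, was the largest part of the sum, at 8796, 6335 and 4638 in SMJ at 6 h. Mpo and Elane, which define neutrophil granules, were at 2.4 to 39.4 in these mice. Endothelial markers had 1 of 13 lower, Oit3 at -1.0 (background 1.2%). Stellate cell and fibroblast markers had 1 of 14 lower, Colec11 at -1.0, a lectin that hepatic stellate cells make (background 1.2%). Oit3 missed the threshold without SMJ58 or SMJ101, and Colec11 without SMJ101. Kupffer cell and macrophage markers had 0 of 16, lymphocyte markers 0 of 7 and periportal hepatocyte markers 0 of 14, with and without SMJ56. Summed Kupffer cell markers were 6954 to 8059 in SMJ at 6 h and 5263 to 6558 at 0 h. Slc1a2, which marks the hepatocytes next to the central vein, fell by 4.34 in SMJ, within the range of the other strains (difference -0.71, adjusted p = 0.717; -0.79 without SMJ56). Oit3 and Colec11 differed by -0.98 and -1.01 without SMJ56. The part of neutrophils and of other cell types in the difference in response was not tested.

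The remaining lists had few calls or none with all arrays. Over all genes 1.11% were called higher and 1.2% lower, with all arrays and without SMJ56. Ribosome biogenesis had 1 of 25 higher, Dkc1, at 0.84, and 0 without SMJ56. Fatty acid oxidation and PPARA targets had 2 of 23 lower, Fgf21 and Etfdh, of which Fgf21 kept the call without SMJ56, when Ppara was called too. Acetaminophen activation and conjugation had 0 of 8, the methionine cycle and sulfur amino acids 0 of 19, p53 targets 0 of 14, cytokines, chemokines and adhesion 0 of 24, complement and coagulation 0 of 29 and bile acid synthesis and transport 0 of 20. Growth hormone and sex-biased genes had 0 of 16, the circadian clock 0 of 17, interferon-stimulated genes 0 of 24, proteasome subunits 0 of 31 and respiratory chain subunits 0 of 34. These 11 lists also had 0 calls without SMJ56. Not all had medians near that of all genes. The median difference was 0.42 for acetaminophen activation and 0.41 for cytokines (0.55 and 0.28 without SMJ56). For growth hormone and sex-biased genes it was -0.46 (-0.72 without SMJ56). The other medians with all arrays ran from -0.25 to 0.1. The SMJ change lay above all other strains in 75% of the acetaminophen list (25.4% of all genes). It lay below them in 43.8% of the growth hormone list (26.5% of all genes). Cyp2e1, the main enzyme that activates acetaminophen, rose by 0.63 in SMJ, and its difference of 0.87 did not pass (adjusted p = 0.059; 0.94 without SMJ56, adjusted p = 0.066).

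Fewer genes passed for the response at 3 h than at 6 h. From 0 h to 3 h the response of SMJ differed from the mean of the others for 1 gene (0.00711%), with 727 genes at an unadjusted p under 0.05. The gene was Dusp8, which was lower in SMJ (-2.83 on the log2 scale, adjusted p = 0.032) and was not called without SMJ56. Some differences that did not pass at 3 h were close to their size at 6 h or larger: at 3 h and 6 h Chac1 differed by -2.56 and -1.93, Atf3 by -2.53 and -2.11, Plk3 by -1.89 and -2.28, Lratd1 by 2.28 and 2.98 and Ccn4 by 2.00 and 2.49, with the lowest adjusted p at 3 h for Chac1 (0.0784). The same 0 h arrays, SMJ56 among them, enter both differences, so a like size is partly built in. Without SMJ56 the differences of these genes at 6 h were -1.58, -1.12, -1.94, 2.98 and 2.84, in the same order. Their differences at 3 h without SMJ56 are not given here. Other differences were small at 3 h, with Krt18 at 0.56 and Tgm1 at -0.08. From 3 h to 6 h it differed for 149 genes upward (1.06%) and 229 downward (1.63%). Both comparisons share arrays with the one at 6 h, and no overlap between them is drawn. At 3 h Krt18 in SMJ was between its 0 h and 6 h levels, while Alas2 was below its 0 h level in all 3 mice, the lowest at 57.9.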

How the data were processed

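Liver RNA from 36 mice, 1 per array, had been measured on 1-colour Affymetrix arrays. The deposited intensity values are MAS5 signals on a linear scale, per the submitters' processing notes, and the software version is not given in the sources used here. Each array's mean, trimmed by 2% at each end, was 150, so signals were used as deposited. Precision is limited by the number of arrays, 3 per group.

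An offset of 2.77, the 10th percentile of all signals, was added before log2. Of 45101 probe sets, 64 were controls, 34945 carried 1 gene symbol, 932 several and 9160 none. Each gene was represented by its probe set with the highest mean log2 signal, and probe sets marked as cross-hybridising were passed over where another existed. Of 18193 genes, 14057 had at least 3 arrays above the median signal, 30.8, and were tested.

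Means of the 12 groups of 3 mice were fitted with limma 3.58.1 under R 4.3.3 on all 36 arrays (24 residual degrees of freedom, two-sided moderated tests, Benjamini-Hochberg adjustment over all genes, threshold 0.05). On simulated data of the main comparison the share of genes recovered was 24.5% when simulated at 1.5-fold, 47% at 2-fold and 73% at 4-fold, and 5.86% of the calls were false. The alternatives were 2 other offsets, quantile normalization, 75th percentile scaling, other filters, a second probe set, array weights, trend and robust estimation, fewer strains or arrays, and leaving out each array of 0 h and 6 h.

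The members, the 39 gene lists and the rule for named genes were chosen with earlier results of these data known. The rule named the 15 largest differences each way among genes called with and without the array SMJ56 at 0 h whose SMJ change lay outside the range of the other strains, up to 4 genes of each of 33 lists, and 5 genes each way that were called with that array but missed the threshold without it. Further genes were named after their values were seen, among them those of the 6 lists added last and those called against each strain. Gene symbols come from the platform annotation, and promoter windows from RefSeq.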

Additional observations from a re-analysis of the deposited data

Results flagged for a closer look

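The difference between the 6 h response of SMJ and that of the other strains was itself tested for every gene, and it passed for 325 genes against the mean of the 3 strains, 118 against SJL, 89 against DBA and 629 against C57. The genes called against each strain as well as against the mean, with and without SMJ56, had log2 differences of 3.26 (Alas2), 2.98 (Lratd1), 2.03 (Fam107b), 2.03 (Tes), 2.02 (Tgm1), 1.86 (Phldb2), 1.71 (Krt18), 1.23 (Inf2), 1.2 (Blcap), 1.11 (Myl12a), 1.03 (Trmt6), 0.94 (Mmp14), 0.9 (Wdr1), 0.85 (Dstn) and -1.12 (Tmcc1). In all 15 the SMJ change lay outside the range of the other strains, which follows from how these genes were chosen and is no further result. With 3 mice per group no single array was tested as an outlier.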

How the results depend on the processing

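The count of 325 genes stayed within 1.5 times under a fit of the 24 arrays of 0 h and 6 h alone (306), offsets of 1 (321) and 16 (359), quantile normalization (305), 75th percentile scaling (297), no filter (218), a filter at 12 arrays (381), trend and robust estimation (392) and DBA and C57 alone as the other strains (337). It moved to 660 (295 higher, 365 lower) with array quality weights and to 74 (35 and 39) with a second probe set of each gene, where 6371 genes could be tested. Leaving out 1 array gave 131 to 347 genes. The 1 gene called for the response at 3 h was not called without SMJ56 or with an offset of 16, where the count was 0. The second probe set reversed the direction of Ankrd44 (0.17), Ccdc141 (0.54), Srf (-0.26) and Abcd3 (0.22). Of the 30 largest named differences, 15 kept their call in every fit without 1 array. In every other alternative where they were measured 17 kept it, and 29 kept their direction throughout. A second probe set could be tested for only 11 of the 30, and of these 10 had the same direction and 2 passed. The cause of these shifts was not tested. No paired analysis was possible because each mouse has a number of its own and groups share none. Signals near the offset of 2.77 limit Lratd1, Itga10 and Slc9a7.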
